A study of Mus musculus with 21 samples.

Results

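The genes described are 10 genes of the canonical Wnt pathway, Axin2, Nkd1, Lef1, Tcf7, Sp5, Sp8, Cdx1, Notum, Dkk1 and Frzb, chosen by name from the 53796 genes listed in each of 3 expression tables of mouse embryonic stem (ES) cells. Each symbol occurred once in every table. In the text they are taken in order of their roles: inhibitors inside the cell, transcription factors that carry the signal to DNA, transcription factors among the targets, and secreted antagonists.

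In canonical Wnt signalling a ligand bound to Frizzled and Lrp receptors stops a destruction complex from degrading beta-catenin, which then enters the nucleus and joins factors of the TCF/LEF family on target genes. Many of the targets are themselves inhibitors of the pathway, so that the signal limits itself. In the early embryo and in differentiating ES cells the pathway is known for inducing the primitive streak, where mesoderm and endoderm arise.

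RNA was sequenced from V6.5 mouse ES cells in 5 groups of 3 libraries each. The LIF control libraries were of WT genotype with a control guide RNA (sgRNA) in the title, and the LIF KO libraries were labelled Dot1l KO. Dot1l is the enzyme that methylates histone H3 at lysine 79. Per the labels' protocols, ES cells were maintained on inactivated mouse embryonic fibroblasts in serum medium with leukemia inhibitory factor (LIF, 100 U/ml), which keeps them undifferentiated. The same 2 genotypes formed the Wnt3a and activin A control and KO groups. Those cells were plated on gelatin in N2B27, a medium without serum, for 2 days and then given Wnt3a at 50 ng/ml together with activin A at 10 ng/ml, which started differentiation. They are called differentiated below. The protocol states a usual harvest for expression at 24 h, and the medium also held Y-27632. The fifth group, titled mESC, had no treatment and the genotype Cdk1as/as, in which the mitotic kinase Cdk1 carries an analog-sensitive form. It therefore differs in genotype from the LIF control libraries. The labels name neither the kind of deletion nor whether KO cells were 1 clone or a pool, and they do not say that replicates were separate cultures. The p-values below thus rest on a spread among libraries that may be only technical.

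The sequences before a transcript start of 4 of these genes are shown because Wnt targets are read through TCF/LEF factors, whose binding sites hold CTTTGA or CTTTGT, and because these 4 genes were higher in differentiated KO cells. Each line gives the 250 bases before a transcript start of the RefSeq promoter table in GRCm38.p6, 5′ to 3′ on the strand of the gene, with matches of either motif on either strand in capitals. CTTTGT read on the other strand is ACAAAG, letters that binding sites of Sox factors also hold.
Sp5: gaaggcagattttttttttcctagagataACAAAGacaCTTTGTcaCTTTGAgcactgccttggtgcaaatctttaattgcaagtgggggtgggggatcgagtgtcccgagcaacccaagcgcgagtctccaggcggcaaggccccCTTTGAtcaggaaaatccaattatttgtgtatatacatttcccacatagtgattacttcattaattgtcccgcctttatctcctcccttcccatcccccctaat
Dkk1: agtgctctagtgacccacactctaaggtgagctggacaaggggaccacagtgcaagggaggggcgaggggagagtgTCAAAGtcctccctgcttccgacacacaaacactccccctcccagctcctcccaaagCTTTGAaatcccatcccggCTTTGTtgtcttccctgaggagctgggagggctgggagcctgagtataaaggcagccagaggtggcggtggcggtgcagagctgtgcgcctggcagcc
Frzb: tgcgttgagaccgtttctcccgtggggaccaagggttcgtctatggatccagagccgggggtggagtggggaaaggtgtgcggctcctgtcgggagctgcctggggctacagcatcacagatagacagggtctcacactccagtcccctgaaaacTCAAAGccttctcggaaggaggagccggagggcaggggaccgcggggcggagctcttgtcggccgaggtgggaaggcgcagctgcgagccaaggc
Axin2: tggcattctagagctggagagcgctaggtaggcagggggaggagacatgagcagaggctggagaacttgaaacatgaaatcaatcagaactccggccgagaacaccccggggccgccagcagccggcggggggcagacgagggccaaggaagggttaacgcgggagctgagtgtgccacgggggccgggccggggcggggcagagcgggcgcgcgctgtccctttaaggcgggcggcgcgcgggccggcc

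The Sp5 window is chr2:70474673-70474922 on the plus strand, and it held 4 matches, 2 of CTTTGA and 2 of CTTTGT. They began 221, 212, 204 and 104 bases before the start, so that 3 of them lay next to each other. The Dkk1 window, chr19:30549497-30549746 on the minus strand, held 3 matches, beginning 174, 117 and 98 bases before the start. The Frzb window, chr2:80447397-80447646 on the minus strand, held 1 match, 95 bases before the start, and the Axin2 window, chr11:108920099-108920348 on the plus strand, held 0. The Axin2 window lies inside the RefSeq span of the gene, which begins at 108917828, and the bases before that first start were not searched. It ends where the deposited table's Axin2 locus begins, at 108920348. Over all 32851 such windows of the RefSeq table, 13.8% held CTTTGA, 16.5% held CTTTGT, 27.6% held at least 1 match of either, 0.776% at least 3 and 0.0944% at least 4. In all, 8 of the 10 genes had 14 windows in the table, and 5 of the 14 windows, each of a different gene, held a match, to be read beside the 27.6% of all windows. Besides the 3 shown, these were Sp8, with 1 match in 1 of its 3 windows, and Lef1, with 3 matches in 1 of its 4. Both of these windows lie inside the RefSeq span of the gene. The Sp8 window begins at 118846983 and the gene at 118846288, and the Lef1 window begins at 131156044 and the gene at 131110297. The Lef1 window at the first start of the gene held 0 matches. The first Sp8 window, 118846079 to 118846328, also held 0 matches, but it runs past the first base of the gene. The full window before that first base of Sp8 was not searched. Cdx1 and Notum had no entry. A match describes these letters only and no binding was measured here.

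Expression is given as FPKM, fragments scaled to transcript length and library size, so levels of different genes are compared per length. The targeted gene Dot1l was at 21.2, 20.6 and 24.6 FPKM in LIF controls against 11.2, 8.90 and 10.8 FPKM in LIF KO libraries. In differentiated cells it was at 18.5, 17.7 and 19.1 FPKM in control and at 13.5, 12.9 and 14.7 FPKM in KO libraries, so its transcript was lower but present in every library labelled KO. The 8 ES cell markers summed to 5999 to 6042 FPKM in LIF control and 5022 to 5278 FPKM in LIF KO libraries, to 2590 to 2742 and 1580 to 1697 FPKM under Wnt3a and activin A, and to 3289 to 3534 FPKM in the mESC libraries. The 12 fibroblast and feeder markers summed to 40.6 to 61.8 FPKM in LIF control, 75.8 to 83.2 FPKM in LIF KO, 293 to 324 FPKM in the control and 127 to 135 FPKM in the KO libraries of the differentiated cells, and 153 to 204 FPKM in mESC. Of these 12 markers, 2 were at 0 in all LIF control libraries, 1 in all LIF KO libraries, 1 in all differentiated controls and 0 in all differentiated KO libraries. In the differentiated cells most of the sum was Tagln, a smooth muscle and fibroblast gene, which fell from 270 ± 17.8 to 78.4 ± 2.80 FPKM (SD, n = 3) between control and KO. The part of such cells in the results below was not tested. LIF KO replicate 3 stood apart, with 28.6% of its summed FPKM in the microRNA gene Mir6236, against 5.25% to 8.31% in the other 5 LIF libraries. In bulk RNA, fewer cells of a type and less RNA per cell cannot be told apart.

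Tests compared KO with control inside each table with limma on log2(FPKM + 1), over all genes whose mean reached 1 FPKM, and a gene is called where its Benjamini-Hochberg adjusted p is under 0.05. A positive log2 fold change means a higher value in the KO, and the added 1 shrinks the changes of weakly expressed genes. The 3 tables were scaled separately, so levels in LIF, under Wnt3a and activin A and in mESC are set side by side without a test. The KO response in LIF and that under Wnt3a and activin A were compared by an interaction term.

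**Figure D1:**
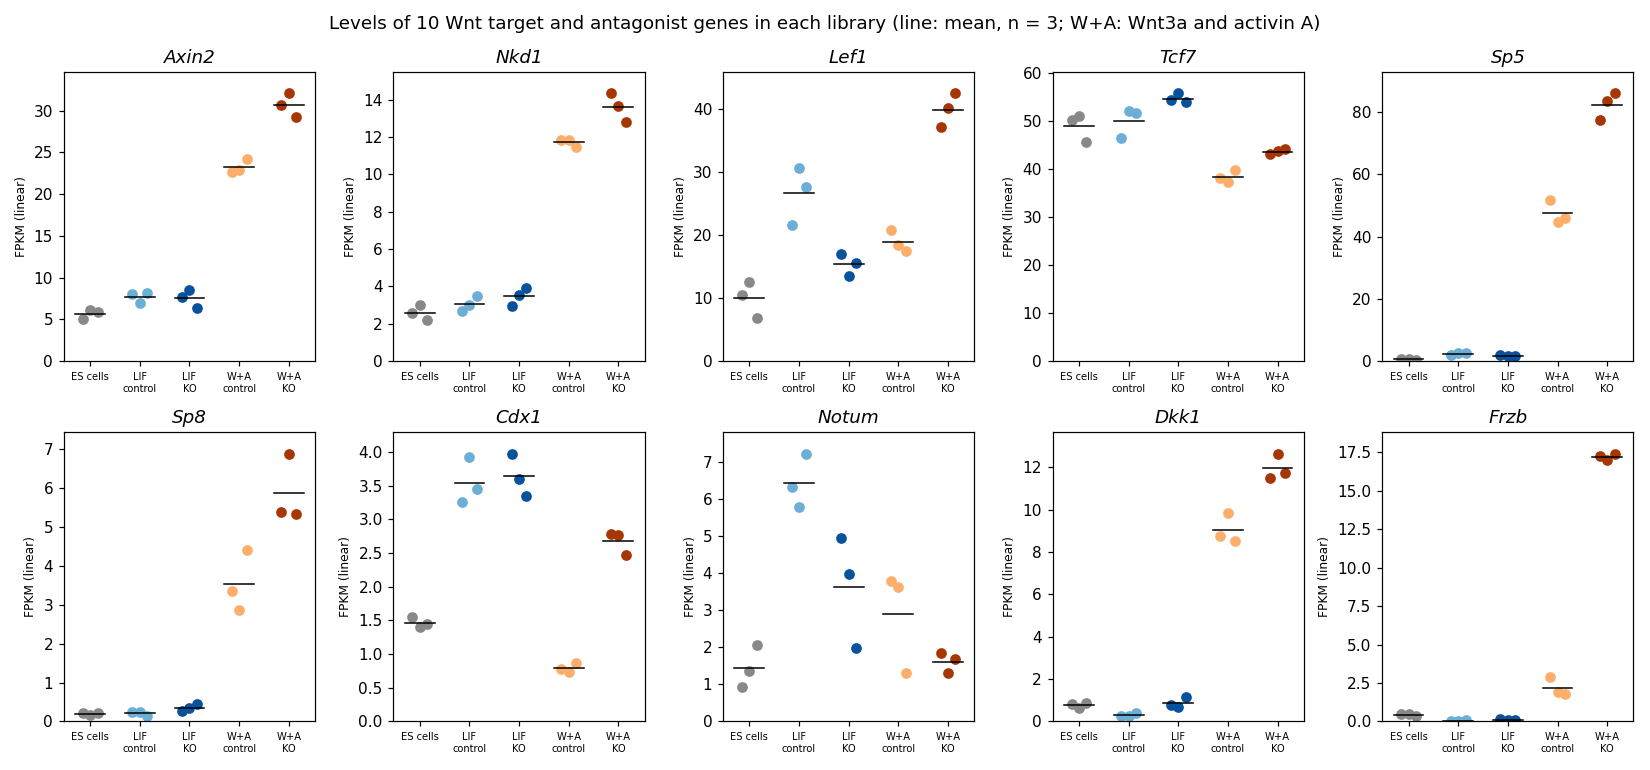
Level of each of the 10 genes in FPKM (linear vertical axis from 0, scaled per gene) in the 15 libraries; points are libraries, lines are means of 3, and W+A stands for Wnt3a and activin A. Axin2, Nkd1, Sp5, Sp8, Dkk1 and Frzb were highest under Wnt3a and activin A, and in 9 of the 10 genes, all but Notum, every differentiated KO library lay above every differentiated control library.

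Axin2 and Nkd1 act inside the cell. Axin2 (ENSMUSG00000000142, GRCm38 chromosome 11, 108917828 to 108950783) encodes a scaffold of the destruction complex and is a widely used readout of the pathway. It was at 8.07, 6.96 and 8.15 FPKM in LIF control libraries and at 7.66, 8.59 and 6.37 FPKM in LIF KO libraries. After differentiation it stood at 22.6, 22.8 and 24.3 FPKM in control and at 30.7, 32.1 and 29.3 FPKM in KO libraries. The groups overlapped in LIF and lay apart under Wnt3a and activin A, where the KO mean was 1.32 times the control mean. The log2 fold change was -0.04 in LIF (95% interval -0.33 to 0.26, limma adjusted p = 0.883) and 0.38 under Wnt3a and activin A (SE 0.06, limma adjusted p = 0.00302). The response was larger under Wnt3a and activin A by 0.42 (SE 0.14, limma interaction adjusted p = 0.0333). That last call ended in 10 of the 19 alternatives, with limma adjusted p from 0.0526 to 0.0972: the fit with no filter on low values, the replicate block, and the fits without LIF control 1 or 3, LIF KO 1 or 3, differentiated control 1 or 2 or differentiated KO 1 or 2.

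Nkd1 (ENSMUSG00000031661, chromosome 8, 88521342 to 88594887) encodes naked cuticle 1, which binds the relay protein Dishevelled and dampens the signal. It was at 2.69, 2.99 and 3.47 FPKM in LIF control libraries and at 2.96, 3.55 and 3.92 FPKM in LIF KO libraries. Differentiated cells had it at 11.8, 11.8 and 11.5 FPKM in control and at 14.3, 13.7 and 12.8 FPKM in KO libraries. It stood 3.84 times higher in differentiated than in LIF controls, whereas the KO groups differed little from their controls. The log2 fold change was 0.14 in LIF (95% interval -0.18 to 0.47, limma adjusted p = 0.553). Under Wnt3a and activin A it was 0.20 (95% interval 0.03 to 0.36), just short of the threshold (limma adjusted p = 0.0508). The value under Wnt3a and activin A depended on the scaling: it was 0.29 with median-of-ratios rescaling (limma adjusted p = 0.0174) and 0.04 with the span and level trend removed (limma adjusted p = 0.655).

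Lef1 and Tcf7 belong to the TCF/LEF family, which partners beta-catenin on DNA through an HMG box domain. Lef1 (ENSMUSG00000027985, chromosome 3, 131110297 to 131224357) was at 21.6, 30.6 and 27.6 FPKM in LIF control libraries and at 17.1, 13.4 and 15.5 FPKM in LIF KO libraries. In differentiated cells it was at 20.8, 18.5 and 17.5 FPKM in control and at 37.1, 40.1 and 42.5 FPKM in KO libraries. All KO libraries were thus below the controls in LIF and above them under Wnt3a and activin A. The KO mean was 42.4% below the control mean in LIF and 2.11 times the control mean under Wnt3a and activin A.

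The log2 fold change of Lef1 was -0.75 in LIF (SE 0.15, limma adjusted p = 0.0495) and 1.04 under Wnt3a and activin A (SE 0.09, limma adjusted p = 0.000285). The fall in LIF stood just inside the threshold and ended in 12 of its 13 alternatives, all but a pseudocount of 0.1 FPKM. These included leaving out any 1 of the 6 libraries (LIF control 1, 2 or 3, limma adjusted p = 0.0581, 0.127 and 0.128, or LIF KO 1, 2 or 3, limma adjusted p = 0.108, 0.135 and 0.137). Its direction did not change in any of them, and the authors' deposited table gives a q-value of 0.0446. The difference between the 2 responses was 1.79 (SE 0.18, limma interaction adjusted p = 5.05e-05), and it passed the threshold in all 19 alternatives.

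Tcf7 (ENSMUSG00000000782, chromosome 11, 52246527 to 52283383) had the highest level of the 10 genes in both LIF groups. It was at 46.6, 52.1 and 51.8 FPKM in LIF control libraries and at 54.5, 55.9 and 54.0 FPKM in LIF KO libraries. After differentiation it stood at 38.2, 37.4 and 39.8 FPKM in control and at 43.2, 43.8 and 44.1 FPKM in KO libraries. The KO libraries lay above the controls in both conditions, by a small step, and the level was lower in the differentiated cells than in LIF. The log2 fold change was 0.13 in LIF (95% interval -0.02 to 0.27, limma adjusted p = 0.263) and 0.18 under Wnt3a and activin A (SE 0.05, limma adjusted p = 0.0229). The second value was 0.38 with quantile normalization and 0.27 with median-of-ratios rescaling, and its call ended without control replicate 1 or 2 or KO replicate 2 or 3 of the differentiated cells (limma adjusted p = 0.0649, 0.0686, 0.0638 and 0.0683) and with the replicate number as a block (0.0638). The authors' deposited table gives a q-value of 0.604 for it. The locus in the table spans 336299 bases and overlaps those of 18 other listed genes, against 36857 bases in RefSeq, so the value of Tcf7 may hold reads of neighbours.

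The transcription factor genes Sp5, Sp8 and Cdx1 are targets of the pathway. Sp5 (ENSMUSG00000075304, chromosome 2, 70474923 to 70477726), a zinc finger factor of the Sp family that is a direct target in ES cells and the primitive streak, was at 1.90, 2.64 and 2.61 FPKM in LIF control libraries and at 1.93, 1.59 and 1.81 FPKM in LIF KO libraries. Differentiated cells had it at 51.6, 44.8 and 46.0 FPKM in control and at 77.3, 83.6 and 86.0 FPKM in KO libraries. The differentiated controls stood 19.9 times above the LIF controls, and every differentiated KO library was above every differentiated control. This is the gene with 4 TCF/LEF-type matches in the window shown above.

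The log2 fold change of Sp5 was -0.28 in LIF (95% interval -0.63 to 0.08, limma adjusted p = 0.305) and 0.78 under Wnt3a and activin A (SE 0.07, limma adjusted p = 0.000422), with a difference between the responses of 1.06 (SE 0.14, limma interaction adjusted p = 0.000272). Sp5 is a short gene with a span of 2804 bases. Once the span and level trend was taken out, the rise was 1.32 and the difference 1.68, both larger than from the values as deposited.

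Sp8 (ENSMUSG00000048562, chromosome 12, 118846288 to 118852578), a paralog of Sp5 known from limb and tailbud, was at 0.240, 0.237 and 0.145 FPKM in LIF control libraries and at 0.267, 0.339 and 0.449 FPKM in LIF KO libraries. In differentiated cells it was at 3.35, 2.87 and 4.40 FPKM in control and at 5.38, 6.88 and 5.32 FPKM in KO libraries. The KO libraries were above the controls in both conditions, at levels too low for the test in LIF. The change in differentiated cells was 0.60 on the log2 scale (SE 0.16, limma adjusted p = 0.0234), a KO mean of 1.66 times that of the controls. The call ended with quantile normalization (log2 fold change 0.48, limma adjusted p = 0.0607), with no filter on low values (0.0567), with the replicate number as a block (0.0654) and without control replicate 1 or 2 or KO replicate 2 (0.0653, 0.0628 and 0.0715).

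Cdx1 (ENSMUSG00000024619, chromosome 18, 61018862 to 61036199), a caudal-type homeobox gene of the posterior embryo, had an order of levels unlike that of Sp5 and Sp8. It was at 3.25, 3.93 and 3.45 FPKM in LIF control libraries and at 3.98, 3.59 and 3.34 FPKM in LIF KO libraries. After differentiation it stood at 0.786, 0.730 and 0.862 FPKM in control and at 2.78, 2.76 and 2.48 FPKM in KO libraries. Differentiated controls were thus below both LIF groups and below mESC, and the differentiated KO libraries lay between the differentiated controls and the LIF groups. The KO mean was 3.37 times the control mean under Wnt3a and activin A. The control mean there, 0.792 FPKM, lay below 1 FPKM, so Cdx1 reached the filter only through the KO libraries, where it was high. The log2 fold change was 0.03 in LIF (95% interval -0.24 to 0.30, limma adjusted p = 0.897) and 1.03 under Wnt3a and activin A (SE 0.13, limma adjusted p = 0.00106), or 1.64 with a pseudocount of 0.1 FPKM. The responses differed by 1.01 (SE 0.14, limma interaction adjusted p = 0.000399).

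The secreted antagonists are Notum, Dkk1 and Frzb. Notum (ENSMUSG00000042988, chromosome 11, 120653788 to 120661193) encodes an enzyme that removes the lipid from Wnt ligands. It was at 6.33, 5.78 and 7.23 FPKM in LIF control libraries and at 4.96, 3.97 and 1.99 FPKM in LIF KO libraries. Differentiated cells had it at 3.80, 3.62 and 1.31 FPKM in control and at 1.85, 1.30 and 1.69 FPKM in KO libraries. It was the only one of the 10 with a lower KO mean in both conditions, with groups apart in LIF and overlapping, through control replicate 3, under Wnt3a and activin A.

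Notum passed the threshold in neither condition. Its log2 fold change was -0.74 in LIF (95% interval -1.37 to -0.10, limma adjusted p = 0.158), or -0.45 without LIF KO replicate 3, and -0.51 under Wnt3a and activin A (95% interval -1.26 to 0.24, limma adjusted p = 0.214). Without control replicate 3 of the differentiated cells the second value was -0.86 and passed (limma adjusted p = 0.00953), and without control replicate 1 it was -0.33. The difference between conditions was 0.22 (95% interval -0.73 to 1.17, limma interaction adjusted p = 0.714).

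Dkk1 (ENSMUSG00000024868, chromosome 19, 30545876 to 30549496) encodes a protein that binds the Lrp co-receptors and keeps Wnt ligands from using them. It was at 0.264, 0.256 and 0.383 FPKM in LIF control libraries and at 0.771, 0.703 and 1.16 FPKM in LIF KO libraries. In differentiated cells it was at 8.74, 9.84 and 8.52 FPKM in control and at 11.5, 12.6 and 11.7 FPKM in KO libraries. The KO libraries lay above the controls in both conditions. In LIF the gene was below the filter on low values. With no filter its log2 fold change there was 0.52 (95% interval 0.22 to 0.82, limma adjusted p = 0.126), while the authors' deposited table gives a q-value of 0.00489. Under Wnt3a and activin A it rose by 0.37 (SE 0.08, limma adjusted p = 0.0113), or by 0.58 with the span and level trend removed.

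Frzb (ENSMUSG00000027004, chromosome 2, 80411970 to 80447396) encodes secreted frizzled-related protein 3, which binds Wnt ligands outside the cell. It was at 0.0249, 0 and 0.124 FPKM in LIF control libraries and at 0.152, 0.0926 and 0.0751 FPKM in LIF KO libraries, near the bottom of the scale in both. After differentiation it stood at 2.91, 1.92 and 1.79 FPKM in control and at 17.3, 17.0 and 17.4 FPKM in KO libraries. The KO mean there was 7.81 times the control mean, the largest ratio among the 10 genes in that comparison. The log2 fold change of Frzb was 2.52 (SE 0.14, limma adjusted p = 8.82e-05). Frzb was too low in LIF for the interaction test with the filter. With no filter the response differed between conditions by 2.45 (limma interaction adjusted p = 3.20e-05). At these LIF levels the added 1 held the LIF response near 0 (log2 fold change 0.08 with no filter). The 2.45 thus mainly repeats the 2.52 of the differentiated cells and does not show how the KO response in LIF compares. The interaction with no filter gave 0.44 for Sp8 (adjusted p = 0.184) and -0.15 for Dkk1 (adjusted p = 0.607), the other genes below the filter in LIF.

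**Figure D2:**
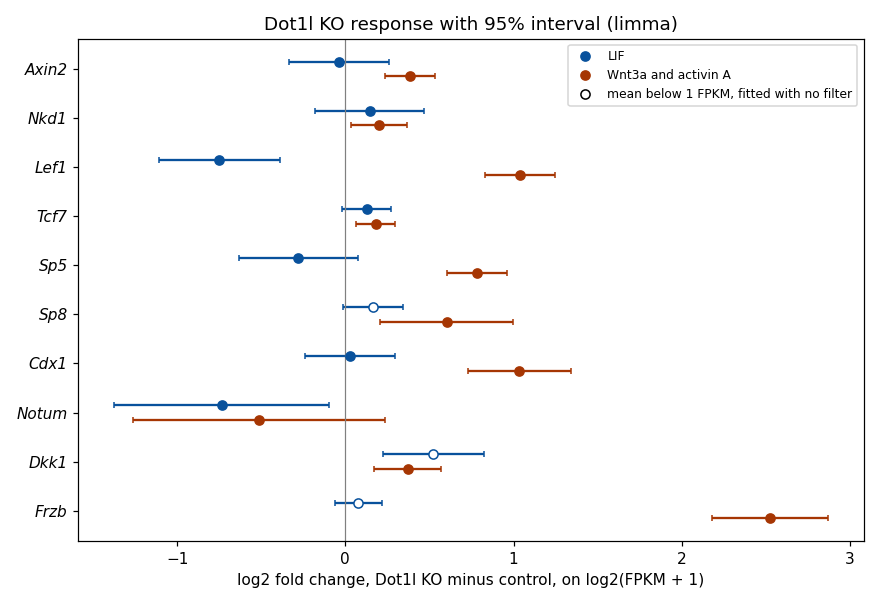
Log2 fold change, KO minus control, of each gene in LIF and in the differentiated cells (Wnt3a and activin A), with 95% intervals from limma; open points are genes with a mean below 1 FPKM, fitted with no filter. The Lef1 points lie on opposite sides of 0 (-0.75 and 1.04), Frzb stands at 2.52 under Wnt3a and activin A, and both Notum points lie below 0.

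Counted together, 8 of the 10 genes were called higher in differentiated KO than in differentiated control libraries and 0 lower, with Nkd1 and Notum not called. Cdx1, among the 8 and also counted in the interaction test below, reached the filter there only through the KO libraries. Among all 12770 genes tested there, 49.1% were called, 19.6% higher and 29.5% lower. The KO and control libraries did not overlap in 9 of the 10, higher in the KO, against 25.3% of all genes tested, and 0 of the 10 lay apart and lower, against 34.8%. The median log2 fold change was 0.49 for the 10 genes and -0.08 for all genes tested. The count of genes called higher was 9 with median-of-ratios rescaling, 8 with the span and level trend removed, 7 with quantile normalization, 7 with no filter and 6 with a replicate block. In LIF, 7 of the 10 genes were high enough to test. Of these, 0 were called higher by limma (0 also at an unadjusted p under 0.05) and 1, Lef1, lower. Over all 13153 genes tested in LIF, 4.41% were called, 0.958% higher and 3.45% lower. The libraries lay apart and higher in the KO for 1 of the 7 (Tcf7), against 8.66% of genes tested, and lower for 2 of the 7 (Lef1 and Notum), against 22.5%. Sp8 and Dkk1, also apart and higher, are not among the genes tested. The median was -0.04 for the 7 genes and -0.07 for all genes tested. In the interaction test 4 of 7 genes, Axin2, Lef1, Sp5 and Cdx1, responded more strongly upward under Wnt3a and activin A, against 17.6% of 11783 genes, of which 38.3% were called in either direction and 20.7% downward. The 3 not called were Tcf7 (0.05, adjusted p = 0.593), Nkd1 (0.06, adjusted p = 0.789) and Notum.

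**Figure D3:**
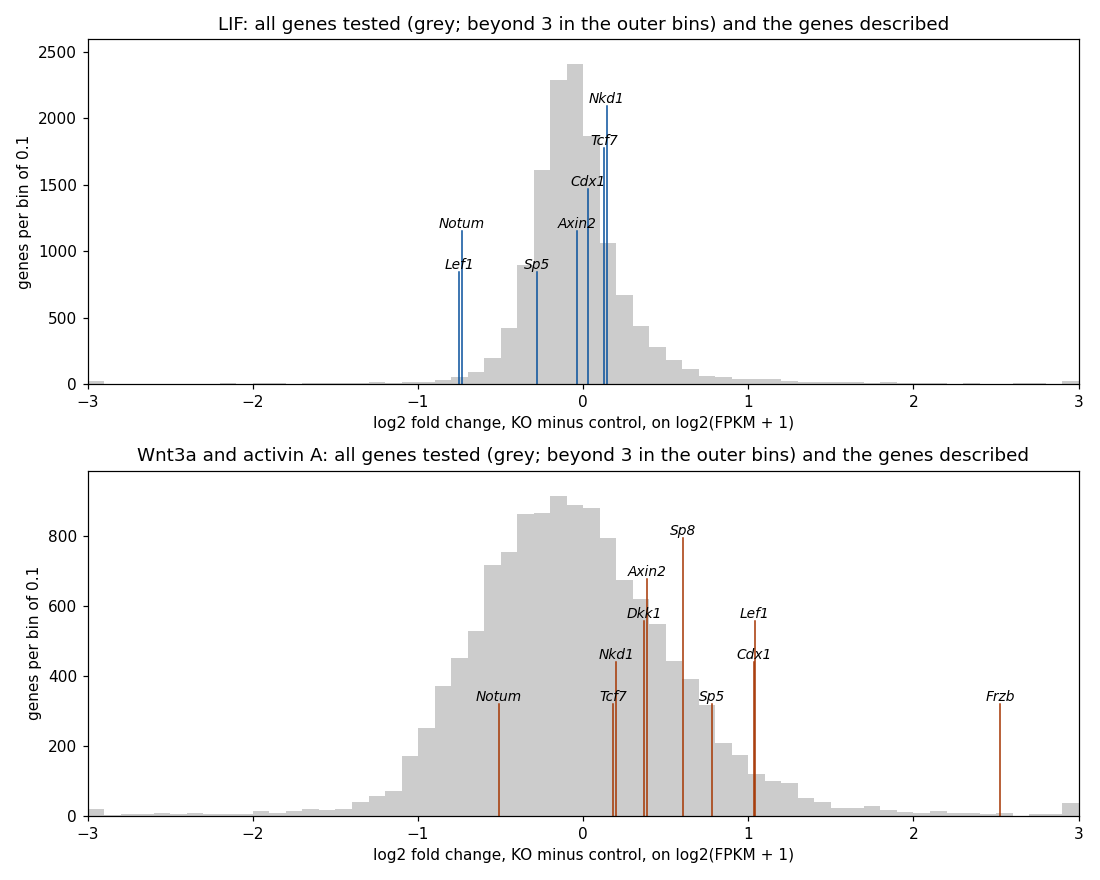
Number of genes per bin of 0.1 in log2 fold change (grey bars, all genes tested) with the position of each of the genes described, in LIF (7 genes) and, below it, under Wnt3a and activin A (10 genes); line heights only separate the names. Under Wnt3a and activin A 9 of the 10 lie above 0 and Notum lies at -0.51, whereas in LIF Lef1 and Notum lie at the lower edge.

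The relative depth of the differentiated control libraries, estimated from the lowest values, was 0.509 to 0.695 of KO replicate 1 against 0.826 and 0.917 for the other KO libraries. These estimates are rough, since 23.1% to 25.0% of the ratios behind them lay within 0.1 (log2) of their centre. How the authors scaled the libraries is not stated, so 3 other scalings were tried beside the values as deposited: 7 of the 8 called genes stayed called under all of them, and Sp8 did not.

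**Figure D4:**
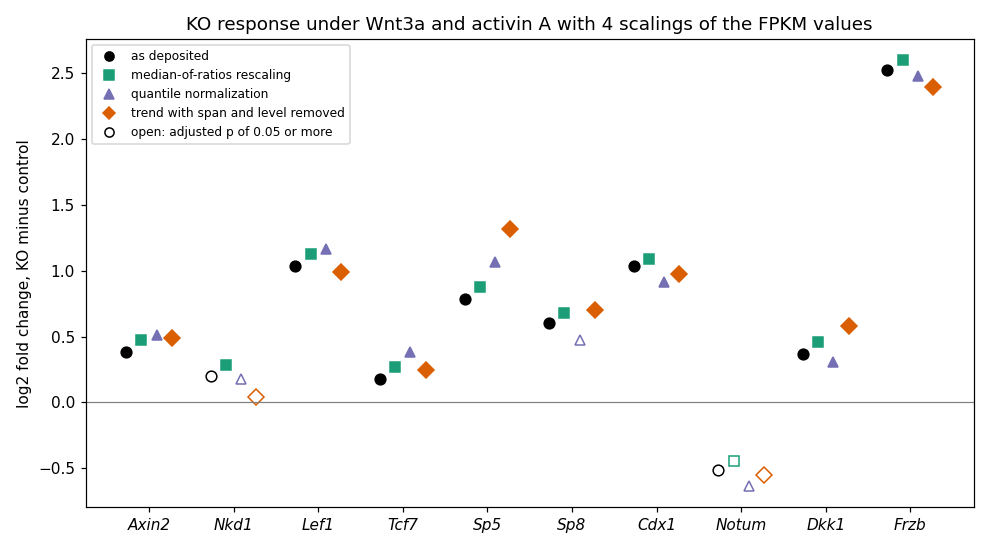
Log2 fold change, KO minus control, under Wnt3a and activin A with the FPKM values as deposited, after median-of-ratios rescaling, after quantile normalization and with the span and level trend removed; open symbols have an adjusted p of 0.05 or more in limma. Sp5 moved from 0.78 to 1.32 and Nkd1 from 0.20 to 0.04 with the trend removed, and Frzb stayed between 2.39 and 2.60.

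The order of the 5 groups differed between the genes. Axin2, Nkd1, Sp5, Sp8, Dkk1 and Frzb shared an order in which both differentiated groups stood above the 3 undifferentiated ones, with the differentiated KO libraries at the top and no overlap between the differentiated groups. Dkk1 stood 30.0 times higher, and Sp8 17.1 times higher, in differentiated than in LIF controls. Lef1 was lowest in mESC and highest in differentiated KO libraries, with all 5 groups apart. Tcf7 and Cdx1 were lowest in the differentiated controls, and Notum was highest in the LIF controls.

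The mESC libraries set beside the LIF controls had lower levels of several of these genes. The FPKM of all genes summed to 666191 to 707882 in mESC and to 840269 to 895128 in LIF control libraries. The lower levels, above all the small step of Axin2, are to be read beside this lower sum. The share of all genes that lay below or above every LIF control library was not counted. Sp5 was at 0.728, 0.565 and 0.499 FPKM in mESC, a mean 3.99 times below that of the LIF controls. Notum was at 0.922, 1.36 and 2.05 FPKM, 4.47 times below. Lef1 was at 10.5, 12.5 and 6.93 FPKM and Cdx1 at 1.55, 1.40 and 1.44 FPKM, 2.66 and 2.42 times below. Axin2 was at 5.01, 6.08 and 5.87 FPKM, also below every LIF control library. Frzb and Dkk1 went the other way, at 0.497, 0.476 and 0.324 FPKM and at 0.809, 0.622 and 0.872 FPKM, above every LIF control library. Tcf7 (50.3, 51.1 and 45.6 FPKM), Nkd1 (2.58, 3.03 and 2.20 FPKM) and Sp8 (0.212, 0.171 and 0.210 FPKM) overlapped the LIF controls. Genotype, table and culture cannot be told apart in this setting.

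Other genes of the pathway were taken from 4 lists, whose counts are to be read beside the 19.6% of all genes tested that rose and the 29.5% that fell in differentiated KO cells, and the 0.958% and 3.45% in LIF. Of 25 further target and feedback genes, 22 could be tested under Wnt3a and activin A, and 12 rose and 1 fell. The median was 0.22. The gene that fell was Fgf8, a growth factor of the streak (log2 fold change -0.30), named after its value was seen. Tcf7l2, another TCF/LEF factor, rose from 3.80 ± 1.57 to 10.3 ± 1.03 FPKM (SD, n = 3), Zfp703, a transcriptional repressor, from 7.17 ± 0.262 to 19.0 ± 2.46 FPKM, Rspo3, a secreted enhancer of Wnt signals, from 2.15 ± 0.905 to 6.43 ± 1.37 FPKM, and Msx1, a homeobox gene, from 4.42 ± 0.410 to 10.3 ± 0.361 FPKM. In LIF 1 of 17 tested genes of this list rose, Jun (log2 fold change 0.38), and 3 fell, Gbx2 (-0.83), Myc (-0.47) and Fzd7, a Wnt receptor (-0.42), with a median of -0.07. Each of these LIF calls ended in at least 7 of 13 alternatives.

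Of 21 other antagonists found in the tables, 10 could be tested under Wnt3a and activin A, and 6 rose and 0 fell, with a median of 0.49. Cer1, counted in this list and a blocker of Nodal and BMP ligands, rose from 7.35 ± 0.644 to 42.6 ± 0.516 FPKM (SD, n = 3). The insulin-like growth factor binding protein gene Igfbp4 rose from 5.31 ± 0.771 to 19.1 ± 0.395 FPKM, and Apcdd1, a membrane inhibitor of Wnt signalling, from 1.51 ± 0.307 to 2.88 ± 0.175 FPKM. Sfrp1, which like Frzb is a secreted frizzled-related protein, rose from 2.93 ± 0.163 to 8.03 ± 0.617 FPKM, whereas in LIF it fell from 18.9 ± 0.825 to 11.999 ± 0.532 FPKM (limma adjusted p = 0.0177). Sfrp1 was the single call among 12 antagonists tested in LIF, and that call ended in 7 of 13 alternatives. A called fall in LIF with a called rise in differentiated cells was seen for Lef1 too, and in these lists also for Myc (0.23 in differentiated cells), Fzd7 (0.44) and Csnk1e (0.25).

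Of 18 tested genes of the destruction complex and the relay to it, 10 rose and 2 fell in differentiated KO cells, and the median was 0.24. Dvl3, a Dishevelled gene, rose by 1.49 on the log2 scale, the tankyrase genes Tnks2 and Tnks, whose products mark Axin for degradation, by 1.47 and 1.12, and Apc by 1.27. Those that fell, named after their values were seen, were Btrc (-0.25) and Dvl2 (-0.23). In LIF 1 of 18, the casein kinase gene Csnk1e (-0.39), fell and 0 rose. Of 19 tested nuclear partners of beta-catenin, 11 rose and 5 fell, the latter a share near that of all genes, with a median of 0.35. Ep300 and Crebbp, which encode acetyltransferase coactivators, rose by 1.62 and 1.55, Tcf7l2 by 1.29 and Sp4 by 1.23. Tcf7l2 is also in the list of further target and feedback genes, so its rise is counted in both lists. Tcf7l1, not called there, is in both lists too. Sp4 averaged 0.588 FPKM in differentiated control and 2.75 FPKM in differentiated KO libraries, so it reached the filter only through the KO libraries. Those that fell, likewise named afterwards, were Cby1 (-0.65), Ctnnbip1 (-0.50), Hdac1 (-0.37), Ldb1 (-0.36) and Aes (-0.24). In LIF 2 of 20 fell, Aes (-0.44) and Ctbp2 (-0.38), both of which encode corepressors. These LIF calls ended in at least 10 of 13 alternatives. With the span and level trend removed the counts under Wnt3a and activin A were 12 higher and 1 lower for the destruction complex, 11 and 3 for the nuclear partners, 12 and 0 for the targets and 6 and 1 for the antagonists. The interaction called 7 of 16 targets upward and 1 downward, 5 of 9 antagonists upward and 0 downward, 9 of 18 genes of the destruction complex upward and 0 downward, and 8 of 19 nuclear partners upward and 3 downward, beside 17.6% and 20.7% of all genes. Tcf7l1 and Tcf7l2 are among the upward calls of both the targets and the nuclear partners.

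Markers of other cells moved in the same libraries. Under Wnt3a and activin A their counts are to be read beside the 19.6% of all genes tested that rose and the 29.5% that fell. The shares in LIF were 0.958% and 3.45%. Of 8 tested primitive streak markers 7 rose and 1 fell under Wnt3a and activin A, of 7 extraembryonic endoderm markers 5 rose and 1 fell, of 6 posterior mesoderm and tailbud markers 5 rose and 1 fell, of 2 neural markers 2 fell, and of 8 ES cell markers 7 fell. The summed level of the streak markers was 971 to 1075 FPKM in control and 1337 to 1401 FPKM in KO libraries, and that of the extraembryonic endoderm markers 104 to 106 and 171 to 173 FPKM. Most of the streak sum was T, at means of 554 and 692 FPKM in control and KO, and Fgf8, at 316 and 257 FPKM. Both are also in the list of further target and feedback genes above, as are Cdx2 and Cdx4 of the posterior markers. Of the fibroblast and feeder markers 4 of 8 tested rose and 1 fell. Their part in the rise of the genes described was not tested. In LIF 7 of 8 ES cell markers and 1 of 4 neural markers fell and 2 of 7 fibroblast and feeder markers rose, while none of the 3 streak, 6 extraembryonic endoderm and 1 posterior markers tested were called in limma. These LIF marker calls were not followed singly through the alternatives. Over all genes the LIF calls went from 580 to between 1 and 40 when 1 library was left out, and to 0 with a replicate block.

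Genes with the pattern most like that of Axin2 and of Frzb were found by Pearson's correlation of log2(FPKM + 1) over the 12 KO and control libraries, among 11783 genes tested in both tables. These libraries form 4 groups in tables scaled separately, so a high value reflects mainly the group means. For Axin2 they were Tspan5 (r = 0.994), Lrig3 (0.993) and Fam89a (0.993). Lrig3 was at means of 6.42 and 5.88 FPKM in LIF control and KO and of 18.2 and 24.6 FPKM in differentiated control and KO libraries, close to the Axin2 means of 7.73, 7.54, 23.2 and 30.7 FPKM. For Frzb they included Cdh2 (r = 0.997) and Gata6 (0.990). Cdh2, which encodes N-cadherin, was at means of 1.18 and 1.28 FPKM in LIF control and KO and of 4.14 and 22.1 FPKM in differentiated control and KO libraries.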

How the data were processed

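RNA was sequenced from 15 libraries in 5 groups of 3, grouped by the sample titles, and the peak lists of the series were not used. The authors deposited FPKM values for every gene in each library. The 2 KO tables also hold the authors' deposited q-value. Cufflinks 2.2.1, Cuffdiff and STAR 2.5.4a were among the tools, per the submitters' processing notes, with mm9 and GRCm38 among the builds. Which step used which, how libraries were scaled and the annotation release are not stated there. Sequencing depth is unknown, and relative depth was estimated from genes with a mean below 0.1 FPKM.

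Gene IDs gave back the 27 symbols that the tables hold as dates. KO and control were fitted per table on log2(FPKM + 1), keeping genes whose mean over 6 libraries reached 1 FPKM, with limma 3.58.1 and its trend option in R 4.3.3; the interaction used 12 libraries and genes passing in both tables. Tests were two-sided, adjusted over all genes tested, with a threshold of 0.05. The script was tested on simulated data. Alternatives were a pseudocount of 0.1 FPKM, no filter, 2 rescalings, removal of the trend with gene span and level, limma without a trend, a replicate block and leaving out each library. Named are all 10 members, Dot1l, up to 4 called genes per list and comparison with the largest change (2 for the interaction), and the 3 nearest genes by pattern to Axin2 and Frzb, of which 1 is not reported here. Members and lists were chosen with earlier results of these data known. Coordinates and promoter windows are from RefSeq on GRCm38.p6.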

Additional observations from a re-analysis of the deposited data

Results flagged for a closer look

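The response to the Dot1l KO differed between LIF and Wnt3a and activin A, by limma's interaction term, for 4 of the 7 genes described that could be tested, all upward. Of all 11783 genes tested, 38.3% were called in either direction and 17.6% upward. Cdx1, among the 4, reached the filter under Wnt3a and activin A only through the KO libraries. The difference, the log2 fold change under Wnt3a and activin A minus that in LIF, was 1.79 for Lef1, whose libraries moved in opposite directions in the 2 conditions. It was 1.06 for Sp5, 1.01 for Cdx1 and 0.42 for Axin2 (limma interaction adjusted p = 0.000272, 0.000399 and 0.0333). The call for Axin2 ended in 10 of 19 alternatives, and those for Lef1, Sp5 and Cdx1 in 0.

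Among other genes of the pathway the difference was 1.90 for Crebbp, 1.82 for Sfrp1, 1.75 for Tcf7l2, 1.70 for Dvl3, 1.35 for Tnks2, 1.20 for Zfp703 and 1.10 for Igfbp4, with adjusted p in limma from 3.47e-06 to 0.00571. These are the 2 called genes of each list with the largest absolute difference. The lists also held downward calls, named after their values were seen: Cby1 (-0.66), Jun (-0.41), Ctnnbip1 (-0.40) and Hdac1 (-0.30). Sfrp1 fell in LIF and rose under Wnt3a and activin A.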

How the results depend on the processing

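The count of genes called in LIF was 580. Without the filter it came to 259, and to 360 with median-of-ratios rescaling, 269 with quantile normalization, 222 after removal of the trend and 236 in limma without a trend. It ranged from 1 to 40 when 1 library was left out: 40, 1 and 18 without LIF control replicates 1, 2 and 3, and 20, 12 and 14 without LIF KO replicates 1, 2 and 3. The share of higher genes among the calls was 21.7%, against 45.6%, 47.2% and 52.3% with the rescaling, the quantile normalization and the trend removed. The count of the genes described that were called lower in LIF, 1, was 0 under each of these settings, with a range of 0 to 0 when 1 library was left out. With a pseudocount of 0.1 FPKM it was again 1. Under Wnt3a and activin A the count called lower, 0, ranged from 0 to 1 with 1 library left out, through Notum. The counts of all genes called under Wnt3a and activin A (6273) and in the interaction (4513), and those of the genes described called higher, stayed within 1.5 times of their value in all alternatives.

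Replicate numbers are shared between groups, but the labels do not say that they pair libraries, and same-numbered libraries had correlations of deviations from -0.01 to 0.06. With the replicate number as a block, 0 genes passed in LIF in limma (2733 at an unadjusted p under 0.05) and 0 of the genes described were called lower there. The count under Wnt3a and activin A was 5594, with 6 of the genes described higher.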

Other observations

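Placed among all genes tested, and as a description because the genes were chosen with results known, the difference between conditions of Lef1 had rank 110 from the top of 11783, and that of Sp5 rank 476. Under Wnt3a and activin A Frzb had rank 50 of 12770 by log2 fold change. Lef1 and Cdx1 stood at ranks 554 and 559, Sp5 at 1033 and Sp8 at 1688. Axin2, the usual readout of the pathway, stood at rank 2778, Dkk1 at 2873, Nkd1 at 3989 and Tcf7 at 4148. In LIF only 1.53% of 13153 genes tested had a lower log2 fold change than Lef1 and 1.58% a lower one than Notum.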
